A study of Drosophila melanogaster with 17 samples.

Results

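The comparison set RNA recovered from larval axonal sections against RNA recovered from adult legs in animals that carried the UAS-Flag-GFP-RpL10 transgene over a wild-type chromosome and no GAL4 driver. Its members were chosen by genotype and tissue from the sample labels, 3 larval and 2 leg libraries, 5 of the 17 samples of the series. The series measured mRNAs bound to tagged ribosomes in Drosophila melanogaster by translating ribosome affinity purification followed by RNA-seq, in heads, in sections of larval axons and in legs, each with a neuronal driver (TRAP) and without one (control). All 5 controls shared the genotype Flag-GFP-RpL10/+, from an outcross of the transgene to w1118, and control animals of both sexes were taken. The larval sections were third-instar body walls from which the ventral ganglion, both ends of the animal and the internal organs had been dissected away. The legs were broken from frozen adults aged 2 days and collected by sieving. Larval and leg libraries were sequenced as separate orders. Stage, tissue, dissection and sequencing order therefore changed together and cannot be told apart in any difference below.

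In this method an antibody against the tag pulls down ribosomes that hold the tagged protein, and the mRNAs on them are sequenced. The GAL4 protein is meant to switch the transgene on through its UAS sites in chosen cells. Without GAL4 some expression can leak from the transgene in any cell type, and RNA can also stick to the beads, so a driverless sample records background RNA from the tissue put into the tube. The counts do not separate these routes. A larval body wall is a sheet of large contractile muscles under an epidermis that secretes a soft, growing cuticle. An adult leg is a jointed tube of hardened cuticle that holds leg muscles, tendons, sensory bristles and the axons of motor and sensory neurons.

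The 5 libraries held between 71688344 and 88324615 counts. Taken as the floor of detection, 3 counts corresponded to at most 0.0418 CPM, the count scaled to library size. With the scaling between libraries (TMM) applied to the CPM values below, 3 counts in larval control 1 were 0.0459 CPM. That floor covers counting error only. The leg libraries correlated at r = 0.987 on the log scale, the larval libraries at 0.950 to 0.980, and larval with leg libraries at 0.759 to 0.777, across genes. Larval control 1 stood apart from its group. In it 5504 genes were at 0, against 1191 and 1225 in larval controls 2 and 3, and the 10 most abundant genes took 36.0% of counts, against 20.2% and 18.4%. Of the 3854 genes at 0 there and above 0 in both other larval libraries, 3253 stayed under 1 CPM in those. Among the 3854, 1 was called higher in larval controls. Genes with this pattern were also called higher in leg controls, TpnC41C and CG7203 among them. The labels do not say whether replicates were separate cultures, and p-values measure only the spread between these libraries.

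Background RNA differed widely between the tissues. Of 16532 genes with a count in at least 1 of the 5 libraries, 1654 (10%) were higher in larval controls and 1775 (10.7%) were higher in leg controls at an adjusted p under 0.05. Adjusted p-values here and below are those of edgeR's quasi-likelihood F-test with Benjamini-Hochberg adjustment over all genes tested, and log2 fold changes are larval over leg with their standard error. Over all genes tested the median of these log2 values was 0.58. Every larval library lay above every leg library for 4134 genes (25%), and every leg library lay above every larval one for 3960 (24.0%). Among 224 genes whose mean in the higher group reached 1000 CPM, 65 were higher in larval controls and 95 in leg controls. Of 4231 genes at 10 CPM or more in all 5 libraries, 769 were higher in larval controls, 528 in leg controls, and 2934 were not called. A gene not called here or below was not thereby shown to be alike in the tissues. The counts of calls moved with single libraries. They were 2592 and 2333 without larval control 1, 730 and 1098 without leg control 1, and 776 and 1055 without leg control 2, where the lone leg library was assumed to vary like the larval ones.

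**Figure D1:**
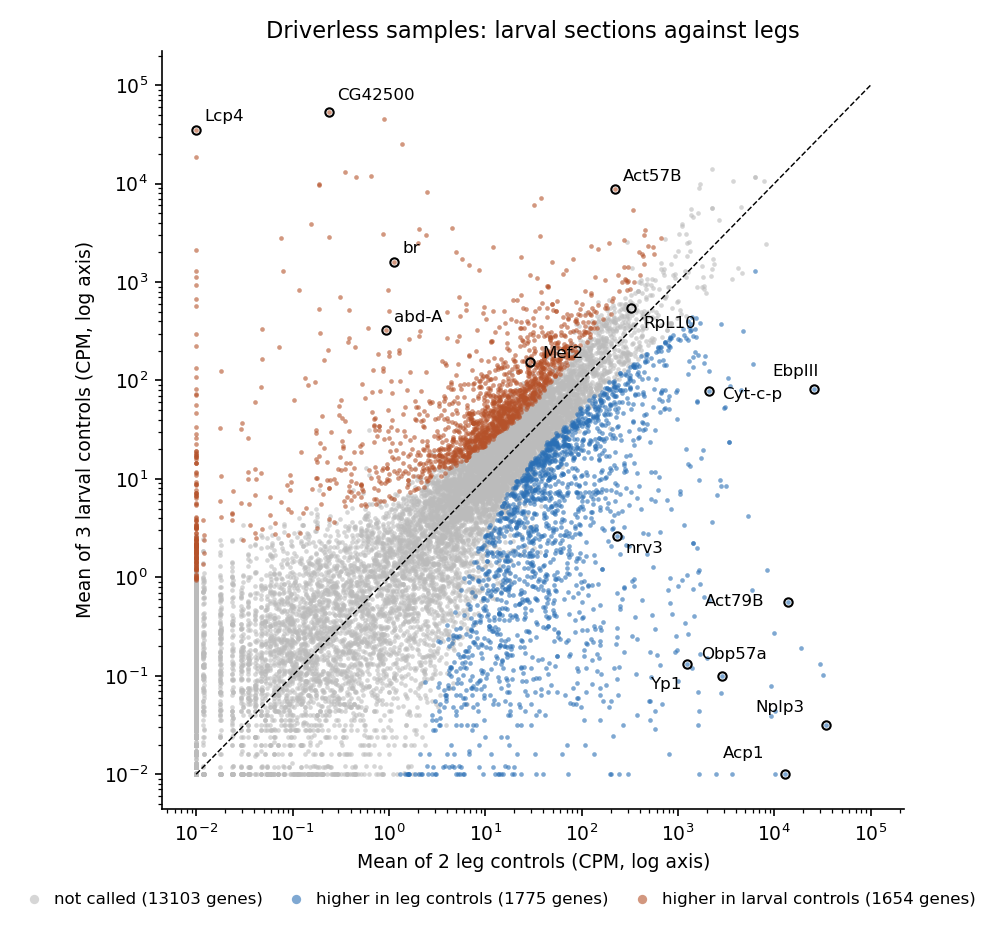
Each point is 1 of 16532 genes at its mean in the 2 leg controls (x axis) and in the 3 larval controls (y axis), in CPM on log axes, with means under 0.01 drawn at 0.01 and the dashed line at equal levels. The 1654 genes higher in larval controls lie above the line and the 1775 higher in leg controls below it, with cuticle genes such as Lcp4 and Acp1 at the far corners.

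Some genes were abundant in 1 tissue and next to absent from the other. There were 29 genes at 10 CPM or more in every larval library and at no more than 3 counts in either leg library, with 12 leg counts over the whole set. They took 9.46%, 4.19% and 4.23% of the counts of larval controls 1 to 3. The reverse held for 24 genes, which took 5.26% and 3.27% of counts in leg controls 1 and 2 and had 49 larval counts over the whole set. Of 13709 protein-coding genes tested, 1551 were higher in larval and 1690 in leg controls, and of 2545 noncoding RNA genes 84 and 76. The noncoding shares lay below the 10% and 10.7% of all genes tested. By the coordinates in the files 1676 of the 3429 called genes overlap another gene, and the sources do not say whether strand was used, so the reads of such pairs cannot be told apart. Among the genes described below, this holds for Zasp66 (with Cdc6), br (Mur2B), Cyp4g1 (CG32816), Cyp313a1 (Pde6), GstE9 (imd), VGlut (CG18641), VAChT (ChAT), TpnC25D (tkv), GluRIIA (CG14017), mRpL28 (Gmd), Ddc (CG10561), Dat (DnaJ-60), Eip78C (CG43218), Syp (Takl1), apolpp (Zyx), elav (arg), futsch (Gr2a), usp (Actn) and roX1 (ec). It also holds, among others, for CG7203 (CR45718), Lsp2 (CR11538), Yp1 (CR45601), Abd-B (CR46267), Antp (CR43252), Scr (CR45901), hth (CR44018), cpx (CG9780) and DIP-gamma (CG11828).

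CG42500, an uncharacterized gene on chromosome 3R, had the highest CPM of the larval controls. It stood at 89792, 40964 and 28270.1 CPM in larval controls 1 to 3 and at 0.328 and 0.151 CPM in leg controls 1 and 2, a log2 fold change of 17.75 ± 2.27 (adjusted p = 0.000400, edgeR). Per length its mean level in larval controls was 120474 CPM per kilobase of exon, against 42687 for Lcp1 and 5023 for Zasp66. Zasp66, a sarcomere Z-disc protein gene, was also among the 8 genes of highest larval CPM but did not pass the test, at 3538, 21680.0 and 17159 CPM against 2563 and 1960.4 CPM (log2 fold change 2.64 ± 1.02, adjusted p = 0.104, edgeR). Every larval library lay above both leg libraries, but larval control 1 was far under the other larval ones. Without larval control 1 Zasp66 was called higher in larval sections (3.10, adjusted p = 0.00405, edgeR).

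Nplp3, annotated as a neuropeptide-like precursor, had the highest mean CPM of the leg controls. It stood at 30611 and 38585 CPM in leg controls 1 and 2 and at 0, 0.0955 and 0 CPM in larval controls 1 to 3, a log2 fold change of -19.91 ± 1.86 (adjusted p = 5.55e-05, edgeR). EbpIII, an ejaculatory bulb protein gene by its name, stood at 24463 and 27261 CPM in legs against 137, 65.6 and 45.4 CPM in larval sections (-8.29 ± 1.05, adjusted p = 0.000381). The larval and leg libraries did not overlap for either gene. The gene whe on chromosome X was at 0 in all 3 larval libraries and at 16343 and 3999 CPM in the legs, at least 221815-fold higher when the larval libraries are set at 3 counts each. Leg control 1 carried the larger share of whe and also of CG16826, an uncharacterized gene at 46395 and 17877 CPM in legs and 0.0459, 0.227 and 0.0359 CPM in larval sections.

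Among the 8 largest differences in each direction, several genes, many without a described function, were at 0 in every library of the other tissue. Others had some counts there. Alp1, an alkaline phosphatase gene, stood at 960.3, 1038 and 823 CPM in larval controls and at 0 in both leg libraries, at least 25793-fold higher. The neighbouring genes CG7924 and CG7906 on 3L stood at 487, 634 and 2232 CPM and 273, 464 and 956 CPM and CG9877 at 1117, 466 and 413 CPM, all at 0 in both leg libraries, at least 30648-fold, 15481-fold and 18244-fold higher. Larval control 3 was the highest library for CG7924 and CG7906 and the lowest for CG9877. On the leg side CG43093, which overlaps Usp12-46 and CG7029, stood at 1705 and 1643 CPM in legs and at 0 in all larval libraries, at least 36500-fold higher. CG34212 stood at 2429 and 2575 CPM in legs with 1 count in the larval libraries, a ratio of 582410 (95% counting interval 104531 to 23004000). CG43680, which overlaps Sytbeta, stood at 5398 and 1956 CPM with 1 larval count, a ratio of 855766 (153593 to 33800900).

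Larval cuticle protein genes made up a large share of the larval counts. The 22 Lcp and Ccp84A genes, which encode chitin-binding proteins of soft cuticle, summed to 20.02, 8.50 and 8.28% of counts in larval controls 1 to 3 and to 219395, 89595 and 75426 CPM, against 28.3 and 49.1 CPM in leg controls 1 and 2. Of the 22, 9 were higher in larval controls and 3 in leg controls, with a median log2 fold change of 4.6, or 3.60 with genes at 0 set at their bound. With either leg library left out the leg count was 1. Each library is a bulk sample, so fewer cells of a type and less RNA per cell cannot be told apart. Larval control 1 was highest for each of Lcp1 to Lcp4.

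Lcp1 to Lcp4 lie side by side on chromosome 2R, between positions 8430115 and 8438495 of the BDGP6 build. Lcp4 stood at 60311, 24616 and 21096 CPM in larval controls and at 0 in both leg libraries, at least 969134-fold lower in legs at the floor of 3 counts. Lcp2 stood at 32829, 13066 and 9997 CPM against 0 in both, at least 510895-fold. Lcp1 and Lcp3 were traced in legs, with 74259, 33867 and 28259.9 CPM against 1.26 and 0.512 CPM for Lcp1 (log2 fold change 15.64 ± 2.06, adjusted p = 0.000487, edgeR) and 45716, 15214 and 14081 CPM against 2.18 and 0.536 CPM for Lcp3 (14.17 ± 1.88, adjusted p = 0.000501). Larval and leg libraries were widely separated for all 4, though reads of the similar Lcp1 and Lcp2 genes may be shared. Lcp65Ab1 and Lcp65Ab2, near-identical copies on 3L whose reads may be shared between them, were at 0 in both leg libraries and at 3559, 1595 and 1155 and 2172, 1001 and 703 CPM in larval sections. The 3 genes called higher in legs were Ccp84Aa, Ccp84Ab and Ccp84Ad, with Ccp84Ab at 0, 0.0478 and 0.215 CPM in larval sections and 14.6 and 34.0 CPM in legs (-8.04 ± 1.07, adjusted p = 0.000521, edgeR).

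The wider Cpr family, which shares a chitin-binding domain with the Lcp genes, split between the tissues. Of 70 members, 22 were higher in larval controls, 17 in leg controls and 31 were not called, with a median of 2.46 (1.26 with bounds). Cpr78E stood at 19003, 10472 and 9989 CPM in larval controls and 0.486 and 0.210 CPM in legs (15.20 ± 1.49, adjusted p = 7.63e-05, edgeR). Cpr49Ac stood at 9358, 13257 and 12892 CPM against 1.07 and 0.233 CPM (14.15 ± 1.5, adjusted p = 0.000123). On the leg side Cpr65Au stood at 3325 and 2284 CPM against 13.5, 7.61 and 4.46 CPM in larval sections (-8.37 ± 0.71, adjusted p = 3.43e-05, edgeR). Cpr49Ae stood at 1703 and 1680.0 CPM in legs against 0.0306, 2.15 and 0.395 CPM (-10.93 ± 1.37, adjusted p = 0.000351), and Cpr100A at 980.4 and 1554 CPM against 0, 0.107 and 0.694 CPM (-12.17 ± 1.35, adjusted p = 0.000158, edgeR). No larval library overlapped a leg library for these Cpr genes. Of the 25 Tweedle genes, a further family of cuticle proteins, 4 were higher in larval controls and 0 in leg controls, but 1 without leg control 1 and 2 without leg control 2. Twdlbeta had the highest level of the 4, at 19.0, 6.10 and 3.60 CPM in larval sections and 0.401 and 1.18 CPM in legs, a call lost without larval control 1 (adjusted p = 0.0631) and without leg control 1 (0.128, edgeR).

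Acp1, an adult cuticle protein gene, had 2 counts in larval control 2 and 0 in larval controls 1 and 3. In the legs it stood at 10852 and 14960.4 CPM, a ratio of 1501890 with a 95% counting interval from 415766 to 12401600. Acp1, CG7214 and CG7203 lie close together on chromosome 2L, from position 7740562 to 7753186. The other two, both uncharacterized, were also leg genes, with CG7214 at 24567 and 35210.2 CPM against 0.352, 0.0358 and 0.0120 CPM and CG7203 at 16494 and 21644 CPM against 0, 0.442 and 0.132 CPM. Acp65Aa, another adult cuticle protein gene, stood at 762 and 557 CPM in legs and 3.06, 3.51 and 2.15 CPM in larval sections (-7.83 ± 0.46, adjusted p = 6.35e-06, edgeR). Resilin, the rubber-like protein of joints and wing hinges, was at 0 in both leg libraries and at 0, 0.896 and 0.191 CPM in larval sections, and was not called.

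**Figure D2:**
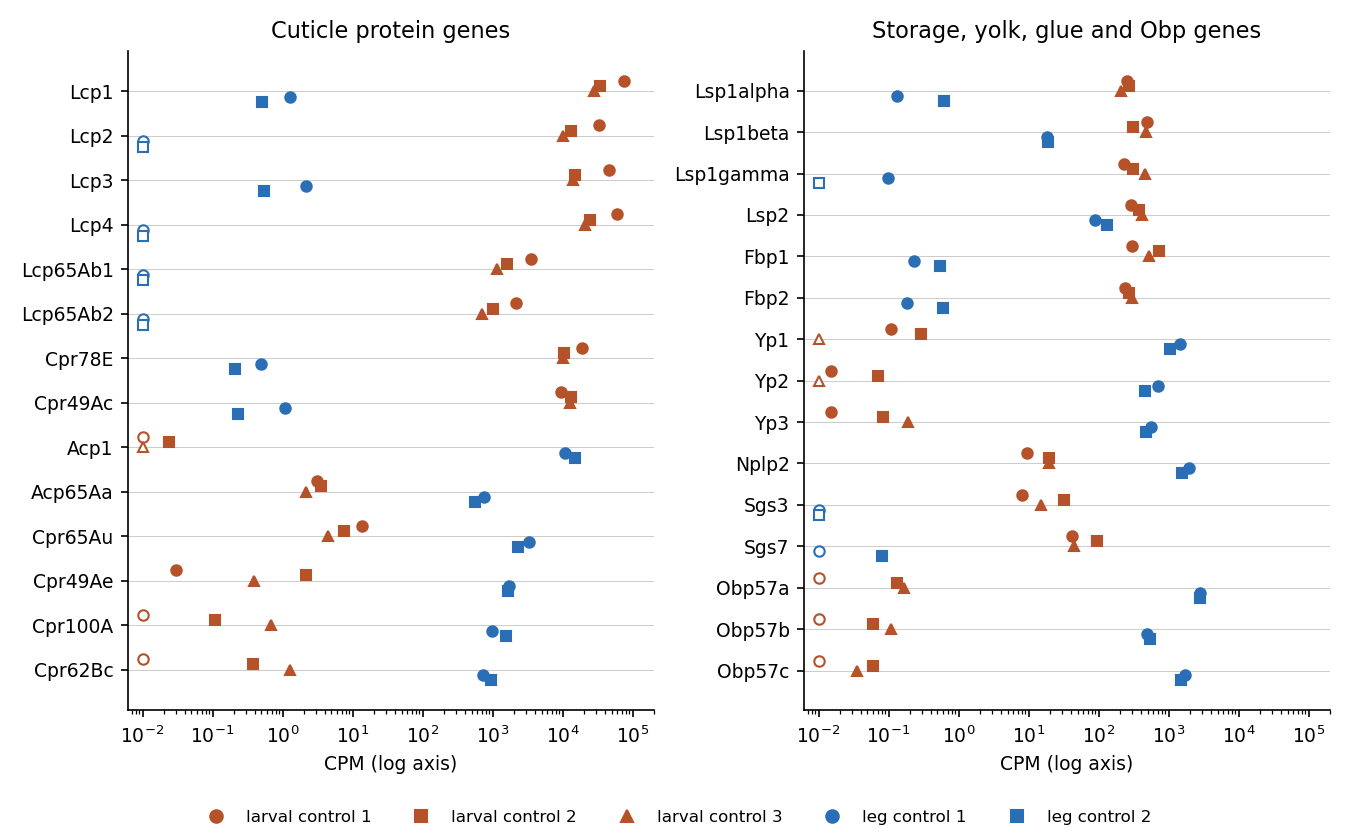
Each point is 1 library, with CPM on a log x axis and genes as rows, larval controls in orange, leg controls in blue, and levels under 0.01 CPM drawn as open symbols at 0.01. The Lcp genes lie at 703 CPM or more in every larval library and at or below 2.18 CPM in legs, while Acp1, yolk protein and Obp57 genes show the reverse order.

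Genes that harden, colour or shape the cuticle were less one-sided. Of 12 tanning genes 2 were higher in larval controls and 4 in leg controls, and of 15 chitin matrix genes 4 and 2, the larval count of the latter being 1 and 2 without leg controls 1 and 2. Ddc, the dopa decarboxylase that makes dopamine for tanning, stood at 1710.5, 2798 and 2398 CPM in larval controls and 119 and 129 CPM in legs (4.21 ± 0.60, adjusted p = 0.000780, edgeR). Dat, which acetylates dopamine, stood at 18.9, 14.1 and 7.87 CPM in larval controls and 1218 and 1428 CPM in legs (-6.60 ± 0.54, adjusted p = 2.76e-05). The groups did not overlap for either enzyme. The tyrosine hydroxylase gene ple, which acts upstream of both, gave 386, 605 and 1181 CPM against 608 and 905 CPM and was not called (-0.06 ± 0.54, adjusted p = 0.943). Cht5, a moulting chitinase gene, stood at 221, 215 and 182 CPM in larval sections against 36.5 and 51.6 CPM (2.23 ± 0.35, adjusted p = 0.00157), a call lost without leg control 1 (adjusted p = 0.0540, edgeR).

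Muscle genes were present in both tissues, but their actin and troponin C genes differed. Of the 6 actin genes, 3 were higher in larval controls, 2 in leg controls and 1 was not called. Act57B, a larval muscle actin, stood at 2311, 15506 and 8468 CPM in larval controls and 214 and 226 CPM in legs (5.32 ± 1.08, adjusted p = 0.00640, edgeR). Act79B, the actin of adult leg and other tubular muscles, stood at 0.0306, 0.788 and 0.862 CPM in larval controls and 13391 and 14394 CPM in legs (-14.58 ± 1.49, adjusted p = 9.86e-05). Larval and leg libraries did not overlap for either gene. Act88F, the flight muscle actin, was also a leg gene at 103 and 110.0 CPM against 0.0306, 0.275 and 0.239 CPM (-9.15 ± 0.66, adjusted p = 1.54e-05). The cytoplasmic actins Act5C and Act42A were higher in larval controls, at 2841, 2323 and 1885 against 457 and 530.1 CPM (2.25 ± 0.55, adjusted p = 0.0158) and 276, 333 and 264 against 38 and 68.4 CPM (2.45 ± 0.41, adjusted p = 0.00204, edgeR). Act87E gave 722, 1318 and 1364 CPM against 1204 and 1226 CPM and overlapped between groups (-0.10 ± 0.49, adjusted p = 0.900). Actin genes share much of their coding sequence, and the sources do not say how reads with several matches were counted. With 1 leg library left, the calls for Act57B (adjusted p = 0.120 without leg control 1 and 0.112 without leg control 2) and Act5C (0.283 and 0.230) were lost, and that for Act42A without leg control 1 (0.0596).

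Troponin C, the calcium sensor of the thin filament, also divided by gene. TpnC73F stood at 1203, 3884 and 3974 CPM in larval sections and 2.19 and 2.68 CPM in legs (10.28 ± 1.01, adjusted p = 7.70e-05, edgeR). TpnC47D stood at 137, 1303 and 116 CPM against 9.86 and 2.69 CPM (6.37 ± 1.32, adjusted p = 0.00698), with larval control 2 far above the other larval libraries. TpnC41C stood at 0, 2.2 and 1.23 CPM against 1669.9 and 1574 CPM (-10.46 ± 1.44, adjusted p = 0.000645). For each of the 3 the lowest library of the higher group lay above every library of the other. TpnC25D was also higher in legs, at 161 and 153 CPM against 8.93, 45.1 and 11.1 CPM (-2.85 ± 0.62, adjusted p = 0.00885), a call lost without larval control 1 (adjusted p = 0.0527). TpnC4, of flight muscle, was at or under 0.474 CPM in all 5 libraries and was not called.

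Most other contractile genes were not called. Over 33 sarcomere genes, the muscle actins, troponin C genes and Mef2 among them, 7 were higher in larval controls, 4 in leg controls and 22 were not called, with a median of 1.04 against 0.58 for all genes. Their summed level was 28129, 126042 and 80165 CPM in larval controls 1 to 3 and 51482 and 51311 CPM in leg controls 1 and 2, so the leg values lay inside the larval range. Larval control 1 was the low library, and without it 15 genes were called higher in larval sections, against 3 with either leg library left out. Myosin heavy chain, Mhc, gave 311, 6626 and 2228 CPM against 1111 and 961 CPM and the light chain Mlc2 5339.9, 17773 and 8453 CPM against 7748 and 8041 CPM, and neither was called (adjusted p = 0.300 and 0.746, edgeR). Mef2, the transcription factor of muscle identity, stood at 110.1, 191 and 158 CPM in larval sections and 29.5 and 29.0 CPM in legs (2.38 ± 0.37, adjusted p = 0.00125).

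Receptors that muscle uses at the larval neuromuscular junction were larval genes. Of 6 genes 5 were higher in larval controls, all 5 of them ionotropic glutamate receptor subunits, and each call stood in each of the 5 fits that left out 1 library. GluRIIA, which sets quantal size together with GluRIIB, stood at 13.1, 44.1 and 46.7 CPM in larval sections and 0.146 and 1.26 CPM in legs (5.62 ± 0.97, adjusted p = 0.00256, edgeR). GluRIIB stood at 4.29, 34.5 and 39.0 CPM against 0 and 0.0699 CPM (9.45 ± 1.38, adjusted p = 0.000887). The obligatory subunits gave 9.20, 35.1 and 20.2 against 0.0972 and 0.897 CPM for GluRIIC (5.43 ± 1.0), 3.65, 36.9 and 34.8 against 2.15 and 1.16 CPM for GluRIID (3.92 ± 0.91) and 10.8, 47.1 and 34.2 against 1.05 and 0.920 CPM for GluRIIE (4.96 ± 0.68). Larval control 1 was the lowest larval library for each of the 5 subunits. GluRIID and GluRIIE overlap each other. The auxiliary subunit Neto was not called (0.627, 1.06 and 4.18 CPM against 4.57 and 4.62 CPM, adjusted p = 0.382, edgeR).

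**Figure D3:**
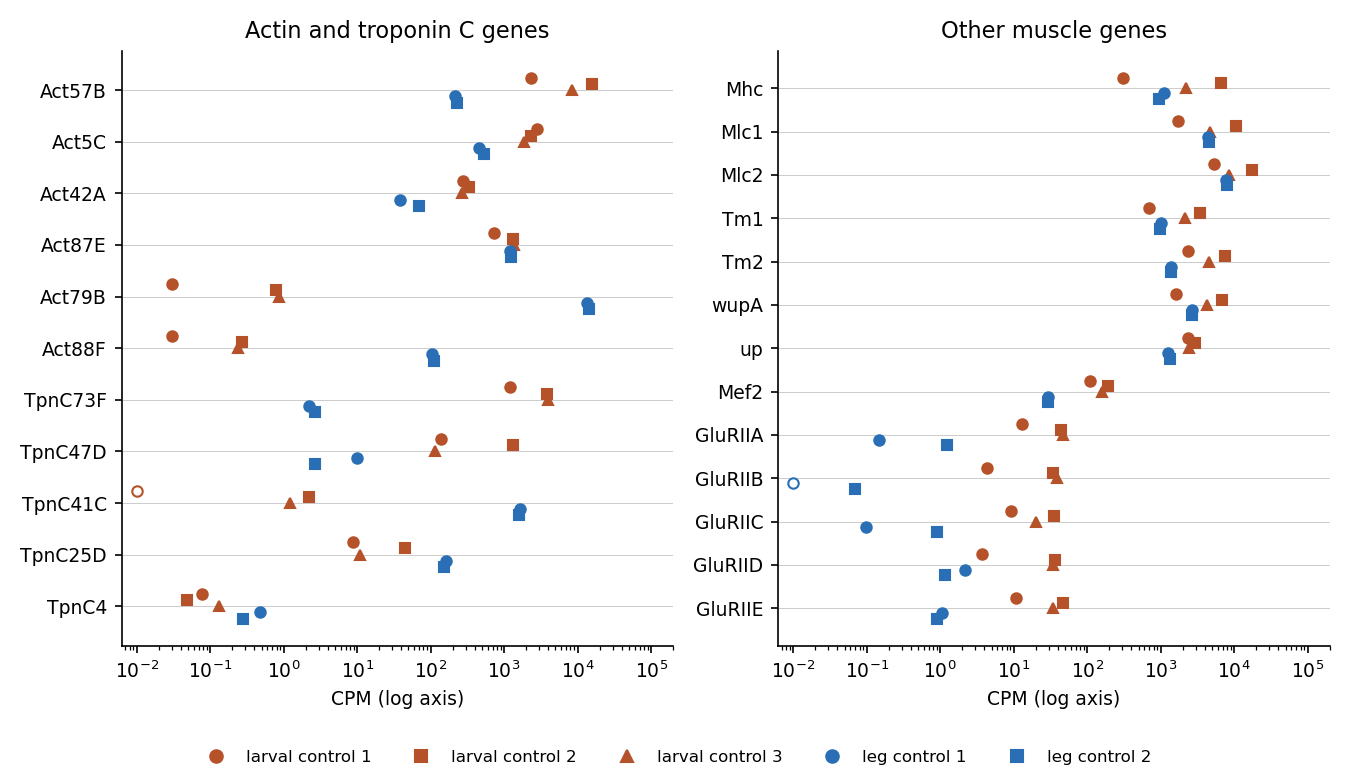
Each point is 1 library, with CPM on a log x axis and genes as rows, larval controls in orange, leg controls in blue, and a level under 0.01 CPM drawn as an open symbol at 0.01. Act57B and TpnC73F lie to the right in larval controls, Act79B and TpnC41C in leg controls, and the larval and leg points of Mhc, Mlc1 and Mlc2 overlap.

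Storage protein genes of the larva and yolk protein genes of the adult separated fully by tissue. All 6 larval storage and fat body protein genes were higher in larval controls, with a median of 9.39, and all 3 yolk protein genes in leg controls, with a median of -13.19. Fbp1, the receptor for storage proteins in the larval fat body, stood at 304, 722 and 522 CPM in larval sections and 0.231 and 0.547 CPM in legs (10.36 ± 0.79, adjusted p = 1.89e-05, edgeR). Lsp1gamma stood at 231, 312 and 466 CPM against 0.0972 and 0 CPM (12.73 ± 1.07, adjusted p = 3.42e-05). Lsp2 differed least, at 288, 380.0 and 417 CPM against 87.8 and 130.1 CPM (1.73 ± 0.39, adjusted p = 0.0115), and its call was lost with either leg library left out (adjusted p = 0.221 and 0.0783). Yp1, a yolk protein made by the adult female, stood at 1446 and 1053 CPM in legs and 0.107, 0.287 and 0 CPM in larval sections (-13.19 ± 1.15, adjusted p = 3.98e-05, edgeR), and Yp2 and Yp3 moved with it, at 707 and 458 CPM and 568 and 480.2 CPM in legs and under 0.2 CPM in every larval library.

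Of 11 general fat body genes 0 were higher in larval controls and 3 in leg controls, and the leg count was 2 without larval control 2, 2 without leg control 1 and 1 without leg control 2. The call for Nplp2 stood in all of these, with Nplp2 at 1932 and 1546 CPM in legs against 9.48, 19.7 and 19.8 CPM (-6.73 ± 0.56, adjusted p = 3.01e-05, edgeR). The lipoprotein gene apolpp gave 30.8, 43.5 and 57.7 CPM against 96.3 and 76.0 CPM and was not called (adjusted p = 0.0708). Of 13 salivary gland genes 8 were higher in larval controls, with glue protein genes Sgs3, Sgs5 and Sgs8 at 0 in both leg libraries and between 7.95 and 40.1 CPM in larval ones. Sgs7 stood at 42.2, 94.7 and 45 CPM in larval sections and 0 and 0.0815 CPM in legs (10.46 ± 0.96, adjusted p = 5.22e-05). The organs had been dissected away, and the gland factors sage and fkh were not called, at 3.06, 0.310 and 0.275 and 0.0153, 1.34 and 1.17 CPM in larval controls. Of 11 haemocyte genes 4 were higher in larval controls and 1 in legs, and the larval count was 7 without larval control 1, 2 without larval control 2 and 2 without leg control 1. The crystal cell enzyme PPO2, a prophenoloxidase, stood at 36.6, 51.7 and 55.6 CPM in larval sections and 1.09 and 0.233 CPM in legs (6.18 ± 0.70, adjusted p = 0.000181), while the plasmatocyte marker Hml gave 9.81, 33.6 and 27.9 CPM against 16.3 and 12.5 CPM and was not called (adjusted p = 0.319, edgeR).

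The Hox genes called by edgeR with all 5 libraries, which give body segments their identity, were abdominal in larval sections and thoracic in legs. Of 8 genes 2 were higher in larval controls, 2 in leg controls and 4 were not called. The abdominal gene abd-A stood at 318, 289 and 368 CPM in larval sections and 0.596 and 1.26 CPM in legs (8.45 ± 0.58, adjusted p = 1.29e-05, edgeR). Abd-B stood at 54.9, 40.3 and 70.1 CPM against 0.109 and 0.501 CPM (7.48 ± 0.71, adjusted p = 6.24e-05). The groups lay far apart for both. Of the thoracic genes, Scr stood at 11.5 and 16.5 CPM in legs and 0.413, 0.370 and 0.479 CPM in larval sections (-5.05 ± 0.61, adjusted p = 0.000273), and Antp at 28.3 and 24.5 CPM against 8.82, 5.46 and 11 CPM (-1.65 ± 0.39, adjusted p = 0.0141), the latter lost with either leg library left out (adjusted p = 0.189 and 0.103, edgeR). Ubx, at 12.8, 93.8 and 108 CPM and 18.5 and 19.2 CPM, was not called (adjusted p = 0.0932), and larval control 1 lay below both legs while larval controls 2 and 3 lay above. The head genes lab, Dfd and pb were at or under 1.54 CPM, the level of Dfd in larval control 3, and were not called by edgeR with all 5 libraries. Without larval control 1, 5 Hox genes were called higher in larval sections. In that fit Antp and Scr were the 2 higher in legs, so the 5 included head genes.

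Of 23 factors that pattern the leg disc along its length, 5 were higher in larval controls and 4 in leg controls, with 3 and 3 with either leg library left out. Dll, the distal appendage selector, stood at 97.1 and 94.7 CPM in legs and 0.0153, 1.49 and 1.70 CPM in larval sections (-6.47 ± 1.05, adjusted p = 0.00173, edgeR). Sp1, a zinc finger gene acting with Dll, stood at 47.1 and 36.2 CPM against 1.80, 0.549 and 0.766 CPM (-5.33 ± 0.55, adjusted p = 9.88e-05). On the larval side were hth and tsh, which mark the trunk and the proximal leg. The level of hth was 247, 606 and 669 CPM in larval sections and 33.1 and 33.3 CPM in legs (3.94 ± 0.55, adjusted p = 0.000714), and that of tsh was 62.3, 34.8 and 87.4 CPM against 3.20 and 0.536 CPM (5.04 ± 0.79, adjusted p = 0.00144, edgeR). Their partner exd differed less, at 90.1, 121 and 76.8 CPM against 59.9 and 65.7 CPM, and was not called (adjusted p = 0.216).

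Genes of the ecdysone response and of larval stage were mostly higher in larval sections. Ecdysone is the steroid that times moults and metamorphosis. Of 29 genes 18 were higher in larval controls and 1 in leg controls, with a median of 2.78, and the larval count was 20 without larval control 1, 13 without leg control 1 and 12 without leg control 2. The early gene br stood at 869.5, 1881 and 2098 CPM in larval sections and 2.25 and 0 CPM in legs (10.49 ± 1.89, adjusted p = 0.00322, edgeR). Eip75B stood at 112, 214 and 279.9 CPM against 19.1 and 16.0 CPM (3.52 ± 0.47, adjusted p = 0.000554), and Eip78C at 119, 225 and 243 CPM against 1.32 and 0.687 CPM (7.60 ± 0.60, adjusted p = 2.41e-05). All larval libraries exceeded all leg libraries for the 3 genes. The receptor gene EcR gave 147, 166 and 194 CPM against 10.5 and 14.1 CPM (3.79 ± 0.37, adjusted p = 7.83e-05), while its partner usp gave 60.4, 40.9 and 40.0 CPM against 29.5 and 27.7 CPM and was not called (adjusted p = 0.148, edgeR). Among genes that mark early or late phases in the nervous system, chinmo (4.80 ± 0.46) and Imp (3.25 ± 0.48) were higher in larval sections, and so was Syp (2.59 ± 0.52), which opposes Imp. The call for Syp was lost without leg control 1 (adjusted p = 0.0872, edgeR) and without leg control 2 (0.114). Eip93F, the factor that specifies adult fates, was the only gene of the list higher in legs, at 108 and 92.3 CPM against 0.993, 4.67 and 10.2 CPM (-4.24 ± 0.73, adjusted p = 0.00242). The juvenile hormone response gene Kr-h1 was not called (16.2, 21.4 and 27.1 CPM against 22.9 and 21.3 CPM). EcR, usp, chinmo, Imp, Eip93F and Kr-h1 were chosen for mention after their values were seen.

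Neuronal transcripts were higher in the legs, where they were called by edgeR with all 5 libraries. Of 25 neuronal genes 0 were higher in larval controls and 11 in leg controls, with a median of -1.64. The leg count was 14 without larval control 1 and lower with either leg library left out. DESeq2 called 3 higher in larval controls, and edgeR called 1 without larval control 1 and 1 without larval control 3. The sodium pump subunit gene nrv3 stood at 225 and 245 CPM in legs and 1.25, 4.21 and 2.39 CPM in larval sections (-6.48 ± 0.52, adjusted p = 2.67e-05, edgeR). The vesicle fusion genes nSyb and cpx stood at 98.0 and 71.4 CPM against 0.856, 3.44 and 5.15 CPM (-4.75 ± 0.62, adjusted p = 0.000459) and at 91.7 and 91.3 CPM against 1.80, 5.92 and 6.47 CPM (-4.27 ± 0.50, adjusted p = 0.000232). The pan-neuronal gene elav, whose protein lies in the nucleus of neurons, gave 14.1 and 18.7 CPM in legs and 3.78, 6.27 and 7.49 CPM in larval sections (-1.49 ± 0.46, adjusted p = 0.0450). The active zone gene brp gave 10.03 and 7.32 CPM in legs and 0.107, 3.94 and 4.30 CPM in larval sections and was not called (adjusted p = 0.302, edgeR). Larval control 1 had the lowest value of the 5 libraries for all 5 of these genes.

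VGlut, the vesicular glutamate transporter of motor neurons, stood at 36.6 and 29.6 CPM in legs and 0.0611, 2.03 and 0.323 CPM in larval sections (-5.35 ± 1.05, adjusted p = 0.00515, edgeR). The acetylcholine transporter VAChT, made in sensory neurons among others, gave 16.7 and 11.3 CPM against 0.199, 1.53 and 1.89 CPM (-3.53 ± 0.83, adjusted p = 0.0136). Of 12 glial genes 1 was higher in larval controls and 3 in leg controls. The glutamate transporter gene Eaat1 stood at 237 and 313 CPM in legs and 1.76, 5.33 and 2.60 CPM in larval sections (-6.41 ± 0.52, adjusted p = 2.76e-05), followed by nrv2 at 122 and 126 CPM against 31.4, 22.5 and 19.6 CPM (-2.34 ± 0.31, adjusted p = 0.000521, edgeR).

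Adult legs carry taste bristles, and several genes of taste and smell were near 0 in the larval sections. Of 52 odorant-binding protein genes 19 were higher in leg controls and 3 in larval controls, with a median of -2.07. Obp57a stood at 2839 and 2849.8 CPM in legs and 0, 0.131 and 0.168 CPM in larval sections (-14.73 ± 1.10, adjusted p = 1.76e-05, edgeR). Its neighbours Obp57b and Obp57c stood at 497 and 535 and 1695 and 1516 CPM in legs and at or under 0.108 CPM in every larval library. The pheromone-sensing channel gene ppk23 stood at 864 and 868 CPM in legs and 0.0153, 0.466 and 0.802 CPM in larval sections (-10.96 ± 1.10, adjusted p = 8.40e-05), and the co-receptors Ir25a and Ir76b at 46.8 and 42.8 against 0, 0.513 and 0.443 CPM (-7.10 ± 1.0, adjusted p = 0.000704) and 60.5 and 60.6 against 2.46, 0.251 and 0.108 CPM (-6.03 ± 1.06, adjusted p = 0.00284). Leg and larval libraries did not overlap for any of these genes.

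Calls were few among the gustatory, ionotropic and odorant receptor genes, against 10% and 10.7% of all genes called higher in larval and leg controls. The leg share of the pickpocket channel genes lay above that of all genes. Of 60 gustatory receptor genes 2 were higher in leg controls, of 60 ionotropic receptor genes 4, of 60 odorant receptor genes 1 in each direction, and of 30 pickpocket channel genes 5 in leg and 1 in larval controls. Without larval control 1, 6 gustatory genes were higher in legs and 0 in larval sections, and 7 ionotropic genes were higher in legs and 6 in larval sections. With either leg library left out the leg counts of the 2 families were 0 and 2. More than 3 counts were found for 7, 58 and 53 of the 60 odorant receptor genes in larval controls 1 to 3 and for 14 and 16 in leg controls 1 and 2. Larval control 1 fell below the legs there and larval controls 2 and 3 above them. The sums were 11.2, 26.7 and 37.5 CPM in larval controls and 32.1 and 32.1 CPM in leg controls. Obp57d shares its counts with the overlapping cuticle gene Cpr57A, and neither of the pair can be assigned.

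Of 84 nuclear oxidative phosphorylation genes, which encode the respiratory complexes and ATP synthase, 54 were higher in leg controls and 0 in larval controls, with a median of -1.57. Their summed level was 16184, 19328 and 11979.7 CPM in larval controls 1 to 3 and 52148 and 47690.0 CPM in leg controls 1 and 2. Cyt-c-p, the somatic cytochrome c, stood at 2147 and 2082 CPM in legs and 84.8, 104 and 48.1 CPM in larval sections (-4.74 ± 0.52, adjusted p = 0.000151, edgeR). ATPsynC, the rotor subunit of ATP synthase, stood at 6525 and 6240.0 CPM against 1223, 1708 and 936 CPM (-2.31 ± 0.60, adjusted p = 0.0221), a call lost without larval control 3 (adjusted p = 0.0708) and without leg controls 1 and 2 (0.181 and 0.165, edgeR). Every leg library lay above every larval library for 71 of the 84, against 24.0% of all genes tested. The calls rested on both leg libraries, and far fewer were made with either of them left out. None of the 35 mitochondrial genes was called by edgeR, and 6 were higher in larval controls at an unadjusted p under 0.05. They took 0.376%, 0.844% and 0.717% of counts in larval controls 1 to 3 and 0.440% and 0.356% in leg controls 1 and 2. DESeq2 called 7 of the 35 higher in larval controls, and edgeR 14 without larval control 1.

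Mitochondrial and cytosolic ribosomal protein genes went in different directions where they were called. Of 73 mitochondrial ribosomal protein genes 37 were higher in leg controls and 0 in larval controls, with a median of -1.12. Of 93 cytosolic ones 8 were higher in larval controls and 0 in leg controls, a share below the 10% of all genes. Their median was 0.77, against 0.58 for all genes tested and 0.06 where a count was required in every library. Every larval library lay above every leg library for 46 of the 93, against 25% of all genes, and the reverse held for 3. At an unadjusted p under 0.05 (edgeR), 26 were higher in larval controls and 3 in leg controls. mRpL28 had the highest CPM of the mitochondrial ones called, at 183 and 188 CPM in legs and 67.1, 106 and 80.2 CPM in larval sections (-1.14 ± 0.32, adjusted p = 0.0323, edgeR), and RpL5 that of the cytosolic ones, at 1047, 682 and 840.2 CPM in larval sections and 362 and 272 CPM in legs (1.43 ± 0.45, adjusted p = 0.0471). Both calls were lost without larval control 3 and with either leg library left out, with adjusted p up to 0.236 and 0.428, and RpL5 also without larval control 2 (0.0517). By list, 4 and 5 mitochondrial and 0 cytosolic calls were made without leg controls 1 and 2. The gene of the tagged protein, RpL10, gave 806, 408 and 438 CPM in larval sections and 357 and 297 CPM in legs, a difference that was not called (0.75 ± 0.45, adjusted p = 0.264). Larval control 1 was the highest library, and whether reads of the transgene were counted on this gene was not tested.

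Translation factors and proteasome genes leaned towards the larval sections. Of 53 translation factor genes 15 were higher in larval controls and 2 in leg controls, with a median of 0.86, and the larval count was 4 and 3 without leg controls 1 and 2. eEF2, which moves the ribosome along the mRNA, stood at 2745, 1755 and 2271 CPM in larval sections and 574 and 529.7 CPM in legs (2.03 ± 0.54, adjusted p = 0.0241, edgeR), a call lost without leg control 1 (adjusted p = 0.293) and without leg control 2 (0.324). eEF1alpha2, the elongation factor of adult neurons and muscle, was 1 of the 2 leg genes, at 162 and 158 CPM against 0.367, 17.3 and 17.5 CPM (-3.77 ± 1.03, adjusted p = 0.0278), whereas eEF1alpha1 gave 6251, 4522 and 5689 CPM in larval sections and 1441 and 1308 CPM in legs and was not called (adjusted p = 0.0576). Of 47 proteasome genes 9 were higher in larval controls and 0 in leg controls, with a median of 1.44. The base subunits Rpn2 and Rpn1 stood at 195, 619 and 803 CPM against 40.4 and 47.0 CPM (3.62 ± 0.64, adjusted p = 0.00287) and 243, 509.6 and 626 CPM against 72.9 and 81.3 CPM (2.58 ± 0.50, adjusted p = 0.00468, edgeR). Larval control 1 was the lowest larval library for both, and the call for Rpn1 was lost without leg control 1 (adjusted p = 0.0622, edgeR). Without larval control 1 33 of the 47 were called, against 2 and 3 without leg controls 1 and 2.

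Of 15 glycolysis genes 1 was higher in larval controls and 3 in leg controls. ImpL3, the lactate dehydrogenase, stood at 95.7, 833 and 334 CPM in larval sections and 8.33 and 11.9 CPM in legs (5.38 ± 0.91, adjusted p = 0.00218, edgeR). Gpdh, of the glycerophosphate shuttle, stood at 529 and 608 CPM in legs and 58.1, 127 and 58.8 CPM in larval sections (-2.81 ± 0.44, adjusted p = 0.00143), and Tps1, the trehalose synthase, at 123 and 121 CPM against 3.50, 3.30 and 3.52 CPM (-5.15 ± 0.30, adjusted p = 6.31e-06). The core enzyme Gapdh1 gave 1349, 6530.2 and 3903 CPM against 1161 and 1038 CPM and was not called (adjusted p = 0.128). Larval control 1 lay nearest the legs for it, and without that library 8 of the 15 genes were called higher in larval sections.

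**Figure D4:**
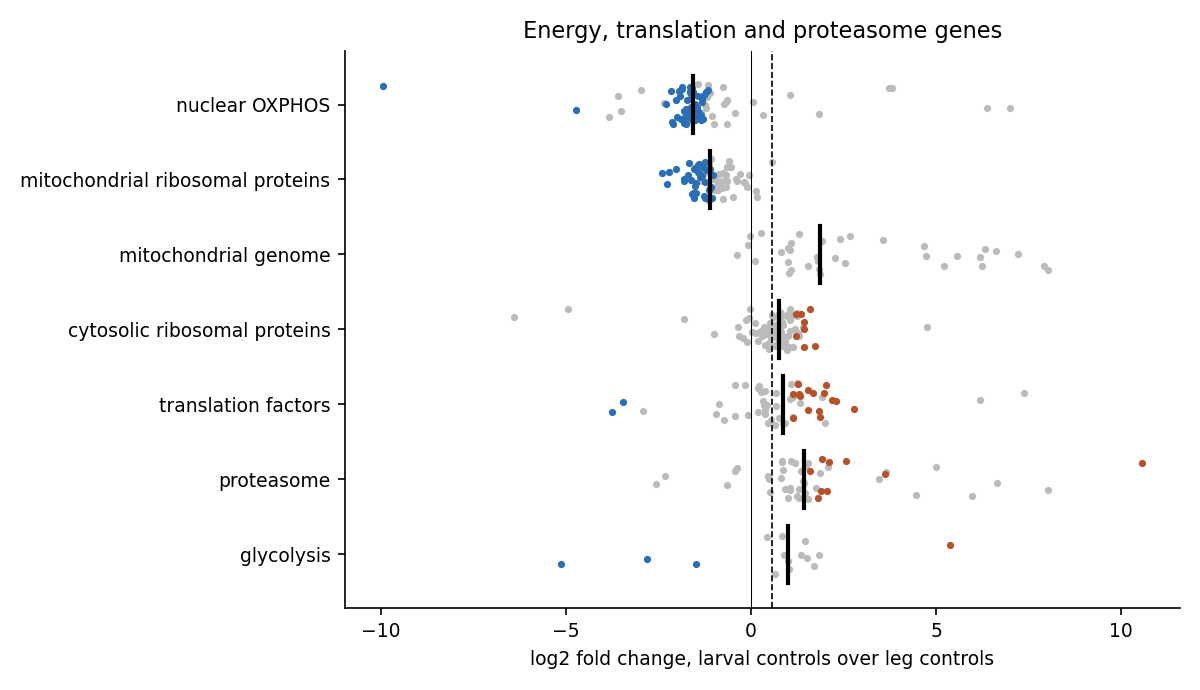
Each point is 1 gene at its log2 fold change of larval over leg controls (x axis), in rows by gene list with random vertical spread, coloured orange where higher in larval controls, blue where higher in leg controls and grey where not called, with a black bar at each list's median and a dashed line at the median of all genes, 0.58. Nuclear oxidative phosphorylation and mitochondrial ribosomal protein genes centre at -1.57 and -1.12, and proteasome genes at 1.44.

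Immune peptide genes were higher in legs where they were called. Of 14 antimicrobial peptide genes 8 were higher in leg controls and 0 in larval controls, with a median of -3.71, and all 8 IM and Bom peptide genes, short secreted peptides of the Toll response, were higher in leg controls, with a median of -7.61. Drs, the antifungal peptide drosomycin, stood at 662 and 501 CPM in legs and 2.78, 9.25 and 5.95 CPM in larval sections (-6.60 ± 0.56, adjusted p = 3.62e-05, edgeR). IM14 stood at 274 and 218 CPM in legs and had 1 count in larval control 2 and 0 in the other larval libraries, a ratio of 57174 (95% counting interval 10262 to 2258270). Every leg library exceeded every larval library for all 22 genes, against 24.0% of all genes tested.

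Digestive enzyme genes were found in the leg libraries and differed between them. Of 44 genes 21 were higher in leg controls and 1 in larval controls, with a median of -4.58, and their sum was 731 and 1939 CPM in leg controls 1 and 2 against 102, 339 and 235 CPM in larval controls. Amy-p, an amylase made by the adult midgut, stood at 46.3 and 217 CPM in legs and 0, 0.597 and 0.0598 CPM in larval sections (-9.18 ± 1.27, adjusted p = 0.000657, edgeR), and its copy Amy-d, whose reads may be shared, at 39.3 and 184 CPM and 0, 0.358 and 0 CPM. Leg control 2 was the higher leg library for both. The maltase gene Mal-A6 led in the legs at 242 and 466 CPM against 21.6, 13.1 and 8.72 CPM (-4.61 ± 0.49, adjusted p = 0.000114). The gut is not part of the leg, and the part of other body fragments in these libraries was not tested.

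Genes of detoxification families were called in both directions, more of them in the legs. Of 84 cytochrome P450 genes 31 were higher in leg and 7 in larval controls, with a median of -1.99, and of 35 glutathione S-transferase genes 21 and 3, with a median of -2.35. Cyp4g1, the oenocyte enzyme that makes cuticular hydrocarbons, stood at 4468 and 5095 CPM in legs and 334, 359 and 259 CPM in larval sections (-3.91 ± 0.55, adjusted p = 0.000715, edgeR). Cyp313a1 stood at 1823 and 2188 CPM against 0.0459, 0.143 and 0.263 CPM (-13.65 ± 0.84, adjusted p = 7.83e-06), and GstE9 at 1109.8 and 1212 CPM against 4.69, 3.31 and 2.18 CPM (-8.42 ± 0.55, adjusted p = 9.54e-06). None of the 3 overlapped between tissues. Of 7 oenocyte lipid genes 4 were higher in leg and 1 in larval controls. The elongase gene eloF, which makes female pheromones, stood at 151 and 116 CPM in legs and 0, 0.848 and 0.108 CPM in larval sections (-8.68 ± 1.16, adjusted p = 0.000545), and FASN3, a fatty acid synthase, at 122, 222 and 304 CPM in larval sections and 14.6 and 19.5 CPM in legs (3.66 ± 0.49, adjusted p = 0.000505, edgeR).

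Of 16 heat shock genes 3 were higher in larval controls and 6 in leg controls, the latter count being 2 without larval control 1 and 2 without leg control 2. The small heat shock genes Hsp23 and Hsp27, which also respond to ecdysone, stood at 918, 2379.7 and 2099 CPM in larval sections and 9.86 and 37.1 CPM in legs (6.26 ± 0.89, adjusted p = 0.000748, edgeR) and at 854, 1492 and 1225 CPM against 8.93 and 49.3 CPM (5.35 ± 0.84, adjusted p = 0.00147). Hsp70Bb, 1 of several near-identical Hsp70 genes that share reads, stood at 54.6 and 89.4 CPM in legs and 14.2, 2.42 and 5.71 CPM in larval sections (-3.28 ± 0.61, adjusted p = 0.00407). Leg control 2 was above leg control 1 for each of these genes, and the calls for the copies Hsp70Ab and Hsp70Bc were lost without it (adjusted p = 0.510 and 0.517, edgeR) and without larval control 1 (0.0854 and 0.0518).

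**Figure D5:**
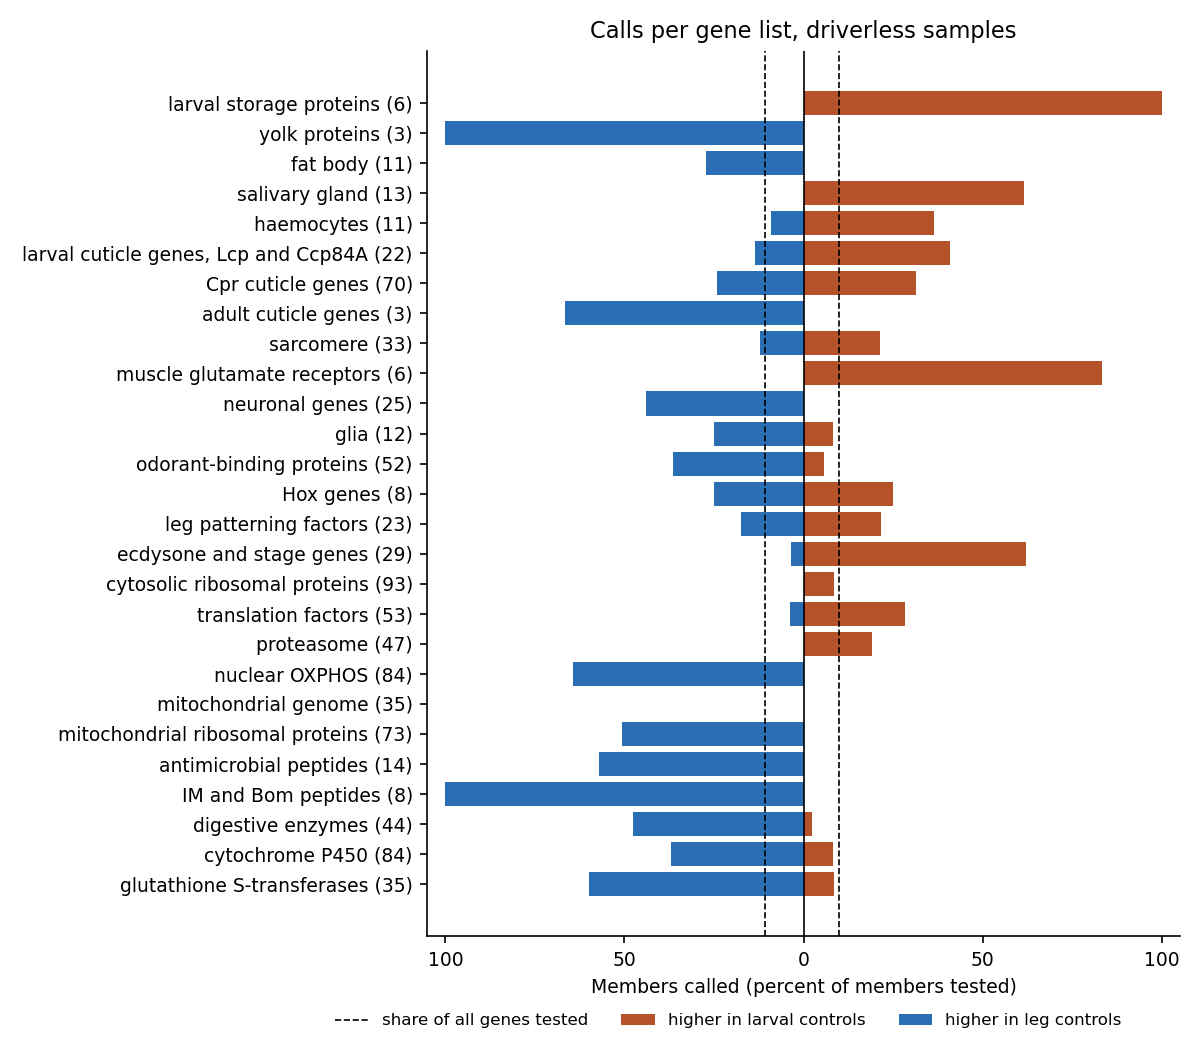
Bars give the percent of the members of each gene list (number tested in parentheses) that were called higher in larval controls (orange, right) or leg controls (blue, left), and dashed lines mark the share of all genes tested, 10% and 10.7%. Larval storage protein genes reach 6 of 6 on the larval side, and yolk protein genes 3 of 3 and IM and Bom peptide genes 8 of 8 on the leg side.

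Among 17 eggshell genes, 16 photoreceptor genes and 13 mechanosensory genes 0 were called by edgeR, with 3, 2 and 4 at an unadjusted p under 0.05. Of 5 tendon cell genes, whose cells anchor muscle to cuticle, 3 were higher in legs and 1 in larval sections, led by the integrin gene if at 1319 and 1218 CPM in legs and 130.1, 112 and 106 CPM in larval sections (-3.45 ± 0.40, adjusted p = 0.000230, edgeR). Of 30 cell division genes 4 were higher in larval sections, near the 10% share of all genes, and 0 in legs. Fewer were called with either leg library left out. Among the 4, CycE stood at 17.9, 17.4 and 25.6 CPM in larval sections and 1.09 and 2.40 CPM in legs (3.54 ± 0.53, adjusted p = 0.00103, edgeR). Of 15 testis genes 1, Mst87F, was called, at 95.7, 21.9 and 16.4 CPM in larval sections and 0 and 0.605 CPM in legs (7.19 ± 1.46, adjusted p = 0.00628), with larval control 1 the highest. Genes of the male accessory gland summed to 2.47 and 41.7 CPM in leg controls 1 and 2 and 1.02, 3.26 and 2.36 CPM in larval controls, so leg control 2 was the high library, and 1 of the 13, Acp62F, was called, and not without leg control 2 (adjusted p = 0.411, edgeR) or without leg control 1 (0.0662). Of 6 sex-specific transcripts 2 were higher in larval controls and 0 in legs, against 10% and 10.7% of all genes. The male dosage compensation RNA roX1 stood at 149, 357 and 422 CPM in larval sections and 48.7 and 29.6 CPM in legs (2.98 ± 0.54, adjusted p = 0.00322, edgeR). The other was the sex-determination gene Sxl (1.19, adjusted p = 0.0308), a call lost without larval control 3 (adjusted p = 0.0571, edgeR).

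Genes that the study followed by name were read in the same libraries. The mitochondrial transcript mt:ND3 was not called (-0.09 ± 0.68, adjusted p = 0.934, edgeR), while Acp1, described above, was near 0 in larval sections. The microtubule gene futsch gave 0.352, 8.47 and 6.67 CPM in larval sections and 24.9 and 19.7 CPM in legs (-2.11 ± 0.90, adjusted p = 0.136). It was called higher in legs without larval control 1, 2 or 3 (adjusted p = 0.0140, 0.0294 and 0.0459, edgeR). Tctp, a growth regulator, stood at 1164, 674 and 634 CPM in larval sections and 309.8 and 278 CPM in legs (1.49 ± 0.47, adjusted p = 0.0489), a call lost with either leg library left out (adjusted p = 0.316 and 0.369). The RNA-binding protein gene caz (-0.53 ± 0.34, adjusted p = 0.288) and the mitochondrial import gene Tom7 (-0.70 ± 0.45, adjusted p = 0.293) were not called. Without larval control 1 Tom7 was called higher in legs (-1.265, adjusted p = 0.00898, edgeR). DIP-gamma, whose enhancer drives GAL4 in the leg TRAP samples, was at 0.0459, 0.633 and 2.37 CPM in larval sections and 0 and 0.0699 CPM in legs and was not called (4.80 ± 2.59, adjusted p = 0.227, edgeR).

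The same tissues were compared with drivers, in 3 OK371 TRAP larval and 3 DIP-gamma TRAP leg libraries that share no library with the controls. Of 16494 genes 1434 (8.69%) were higher in larval TRAP samples and 1376 (8.34%) in leg TRAP samples. Of the 1654 driverless larval calls 905 were called in the same direction with drivers, 54.7% of the driverless and 63.1% of the driver calls, and of the 1775 leg calls 1138, 64.1% and 82.7%. Calls in opposite directions were 0, and 1634 and 1744 of the driverless calls had the same sign with drivers. The drivers label different neurons in the 2 tissues, so the driver differs along with the tissue there. The larval count was 2559 without larval TRAP 2 and between 652 and 797 without any 1 leg TRAP library.

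Whether the larva-leg difference itself depended on the driver was tested as an interaction over all 11 libraries. Of 16745 genes 3 (0.0179%) passed, with 890 at an unadjusted p under 0.05, and DESeq2 called 124. CG14456, an uncharacterized gene on 3L, stood at 521 and 506 CPM in leg controls 1 and 2 and under 0.4 CPM in every larval control, and in TRAP samples at or under 0.526 CPM in both tissues. Its log2 fold change was -11.46 without drivers and 2.39 with them, a difference of 13.92 (adjusted p = 0.00542, edgeR). CG4576 on 3R, which overlaps rec, stood between 69.5 and 78.2 CPM in larval controls, at 1.43 and 0.710 CPM in leg controls, between 37.4 and 56.8 CPM in larval TRAP samples and at 0.0131, 0 and 0 CPM in leg TRAP samples, a difference of 6.90 (adjusted p = 0.00542). GILT3, a lysosomal thiol reductase gene, went from 6.78 without drivers to 2.48 with them, a difference of -4.31 (adjusted p = 0.0306, edgeR), with leg TRAP samples at 4.02, 3.72 and 4.83 CPM against 0.340 and 0.361 CPM in leg controls. The call for CG14456 was lost without larval TRAP 1 (adjusted p = 0.148), and the interaction of GILT3 was no longer called in 8 of the 11 fits that left out 1 library, with adjusted p up to 0.273. The interaction was not called for any other gene, which does not show that the differences were alike.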

How the data were processed

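The authors trimmed reads with Trim Galore, mapped them to the BDGP6 genome with HISAT2 2.2.1, converted them with SAMtools 1.12 and counted them per gene in SeqMonk, and deposited the raw counts per gene used here. The submitters' notes and the study's methods name these tools, while the settings for strand, introns and reads with several matches are not given in the sources used here. Libraries were made from small amounts of RNA with SMART-Seq HT and Nextera XT kits, without molecular identifiers. Larval and leg tables were joined by gene ID over 16977 genes. A further leg control that the authors set aside for DNA contamination was not analysed here.

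All genes with a count in any of the 5 driverless libraries were tested with edgeR 4.0.16 (TMM scaling, quasi-likelihood F-test) in R 4.3.3, after checks on simulated data. In simulated counts with 200 genes changed, edgeR recovered 4.48%, 64.2% and 90.9% of changes of 1, 2 and 4 on the log2 scale. It made 6 false calls. DESeq2 recovered 5.97%, 76.1% and 100% with 112 false calls. A gene not called may therefore still differ between the tissues. The simulation changed far fewer genes than were called here and held no outlying library such as larval control 1. Its rates therefore need not hold for these libraries. CPM values are scaled by TMM, and shares are plain percents of counts. Levels per kilobase used exon lengths of the Ensembl annotation. The test of driver dependence was an interaction of tissue and driver in the same kind of fit over 11 libraries. DESeq2 1.42.0, other scalings, filters and thresholds, a replicate block and fits without each library were alternatives.

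The comparison and the gene lists were chosen with earlier results of these data known. Named genes were the 8 largest changes in each direction among called genes whose higher tissue averaged 50 CPM or more, with no overlap of larval with leg values, the 8 of highest mean CPM in each tissue, up to 6 called members of a list by CPM, defining members of a list, and genes the study followed. The genes named as not called were chosen after their values were seen, and so were Ccp84Ab, elav, VAChT and eEF1alpha2. Replicate numbers did not pair the libraries: the correlations of same-numbered larval and leg deviations were 0.0285 and 0.00163, and the block is reported only among the alternatives.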

Additional observations from a re-analysis of the deposited data

Results flagged for a closer look

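In 3 genes the larva-leg difference with drivers differed from that without drivers by the interaction test of edgeR over 11 libraries. The difference was 13.92 on the log2 scale for CG14456, 6.90 for CG4576 and -4.31 for GILT3. Driver and tissue also changed together in the TRAP samples, since each tissue had its own driver. TRAP animals came from crosses to the GAL4 lines and controls from a cross to w1118, so genetic background changed with the driver. What set these genes apart was not tested.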

How the results depend on the processing

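The counts of called genes moved with the settings. Against 1654 genes higher in larval and 1775 in leg controls, DESeq2 gave 2753 and 2429, an adjusted p under 0.01 gave 875 and 1136, and a replicate block gave 1005 and 1348. Fits without 1 library gave 730 to 2592 larval and 1055 to 2333 leg calls. For larval TRAP samples, against 1434, the count was 628 at an adjusted p under 0.01, 2854 with DESeq2, 647 with library size alone (beside 1383 leg calls) and 652 to 2559 without 1 library. For driver dependence, against 3, it was 124 with DESeq2, 10 with a replicate block and 2 to 14 without 1 library. With library size alone edgeR called 0, with 411 genes in each direction at an unadjusted p under 0.05, and the adjusted p was 0.123 for CG14456 and CG4576 and 0.511 for GILT3. The causes were not tested, though the fits without a leg control rest on 1 leg library.

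Of the 222 called genes chosen for naming, 222 were called in the same direction by DESeq2, 213 with library size alone, 172 with the replicate block, 217 without larval control 1, and 152 and 156 without leg controls 1 and 2. None of these called genes changed direction in any alternative that gave it a value; 169 of them had one where a count was required in every library. The median difference over all genes tested, 0.58 on the log2 scale, was 0.52 to 0.59 under the other scalings, 0.06 where a count was required in every library and 0.83 without leg control 2. Depth did not limit abundant genes, while 3 counts, at most 0.0459 CPM after TMM scaling, set the limit for genes near 0.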
